A study of Thermomyces lanuginosus with 4 samples.

Results

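The genes described here are abundant on glucose and moderately lower on Avicel in Thermomyces lanuginosus. They number 96 of the 9704 gene IDs listed in each library, and 473 IDs reached the same abundance on glucose. The members were chosen by the measured values themselves. A gene was kept when its mean glucose level was at least 200 FPKM (fragments per kilobase and per 1000000 mapped fragments, a level per transcript length), when the ratio of its mean Avicel level plus 1 to its mean glucose level plus 1 lay above 0.25 and at or below 2/3 (0.67, as rounded to 2 decimals throughout), and when both Avicel libraries lay below both glucose libraries. The direction and the approximate size of every difference between the carbon sources are therefore set by the choice and are given as a description, with no test read from them.

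All libraries came from strain P134, a thermophilic filamentous fungus. In each case mycelium was harvested at an age of 2 days, after culture on Avicel in 2 libraries and on glucose in 2 libraries. The labels name no genotype change, other medium component or culture temperature, and they are silent on separate cultures for the libraries of a carbon source, so any spread between them may be technical. FPKM totals were 541446 to 556312 per library, and no read counts were analysed, so the depth behind each value is unknown.

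Avicel is a brand of microcrystalline cellulose, a polymer of glucose that a fungus must cut outside the cell with secreted enzymes before it can take up the sugar. Glucose is taken up directly and feeds glycolysis, and in many filamentous fungi it also represses genes for the use of other carbon sources. Highly abundant transcripts of a growing mycelium commonly belong to basic functions such as protein synthesis and central metabolism. Which of these functions the members serve is not known here, since the files pair no ID with a name. Only the IDs themselves could be compared with a RefSeq gene table of another strain, in which 8214 genes are listed. Of the 9704 IDs, members included, 0 matched, and without sequences this does not show which genes that strain shares. Without names, the labelled material could not be checked against marker genes either. The members are accordingly described by their levels and by their rank among the 96, counted from the highest mean glucose FPKM, and IDs are printed for the highest member and for the member with the lowest ratio.

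The most abundant member, c395_g1, had 1210.4 and 1226 FPKM in the Avicel libraries, against 2834 and 2773 FPKM in the glucose libraries. The libraries of each carbon source lay close together and the carbon sources were far apart. Its mean was 1218 ± 11.2 FPKM on Avicel and 2803 ± 42.9 FPKM on glucose (SD, n = 2 each), a ratio of 0.435. It ranked 27 among all IDs on Avicel and 8 on glucose. Its change was -1.20 ± 0.05 on the log2(FPKM + 1) scale (SE from limma).

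At the other end of the range of ratios, c4179_g1 had 64.4 and 61.1 FPKM in the Avicel libraries, against 255.9 and 250.5 FPKM in the glucose libraries. This member, ranked 71 on glucose, sat just above the lower bound with a ratio of 0.251. Its mean was 62.7 ± 2.38 FPKM on Avicel and 253 ± 3.83 FPKM on glucose (SD, n = 2 each). Among all IDs it ranked 1967 on Avicel and 349 on glucose. Its change was -2.0 ± 0.04 on the log2(FPKM + 1) scale (SE from limma).

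The next members by abundance formed a group above 1000 FPKM on glucose. The member ranked 2 had 696.9 and 686.5 FPKM on Avicel, against 1581 and 1494 FPKM on glucose. Rank 3 followed with 615 and 604 FPKM on Avicel, against 1246 and 1184 FPKM on glucose. Rank 4 had 582 and 571 FPKM on Avicel, against 1208 and 1153 FPKM on glucose. These 3 members kept nearly the same order on both carbon sources, ranking 2, 4 and 5 among the members on Avicel.

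Rank 5 was recorded at 548 and 531 FPKM on Avicel, against 1137 and 1197 FPKM on glucose. For rank 6 the values were 532 and 527 FPKM on Avicel, against 1161 and 1077 FPKM on glucose. Rank 7 stood at 629 and 643 FPKM on Avicel, against 1049 and 1089 FPKM on glucose. With a ratio of 0.595, rank 7 was the third highest member on Avicel. The first 7 members had ratios from 0.435 to 0.595, in the middle and upper part of the window.

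Ranks 8 to 10 were lower relative to glucose than the members above them. In the member ranked 8, the libraries had 266 and 281 FPKM on Avicel, against 1019 and 1082 FPKM on glucose. That ratio, 0.261, was the third lowest of the 96, and the member ranked 22 among them on Avicel. Rank 9 had 340.3 and 353 FPKM on Avicel, against 843 and 958 FPKM on glucose, and rank 10 had 325 and 319.7 FPKM on Avicel, against 889 and 851 FPKM on glucose. Of the 10 members highest on glucose, 7 were also among the 10 highest on Avicel.

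**Figure D1:**
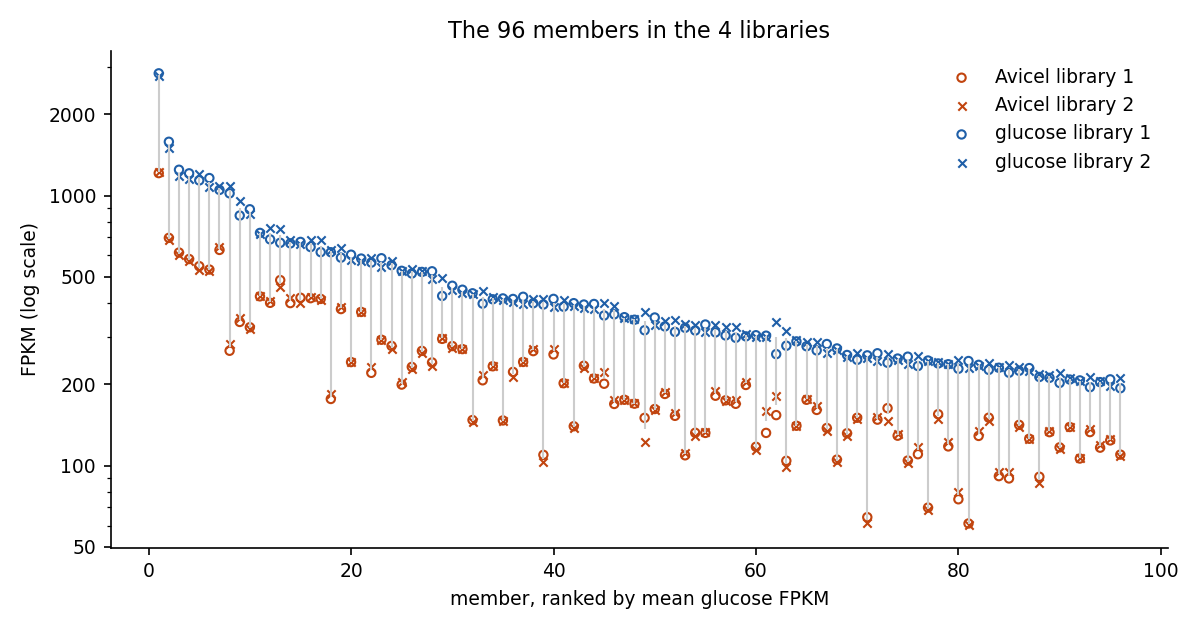
FPKM (log scale) of each of the 96 members in the 2 Avicel libraries (red) and the 2 glucose libraries (blue), ordered by mean glucose FPKM, with a grey line joining the means. The libraries of a carbon source nearly coincide for most members, and member means run from 60.6 to 1218 FPKM on Avicel and from 202.5 to 2803 FPKM on glucose.

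Across the 96 members, mean levels ran from 60.6 to 1218 FPKM with a median of 172 FPKM on Avicel, and from 202.5 to 2803 FPKM with a median of 346 FPKM on glucose. The members thus remained well expressed on Avicel, which the minimum on glucose and the lower bound of the ratio largely set. Means of at least 100 FPKM were found for 89 members on Avicel, and means of at least 200 FPKM for 41. At least 500 FPKM was reached by 7 members on Avicel and by 28 on glucose. Mycelium with less of this RNA per cell and mycelium with fewer cells that hold it cannot be told apart in bulk RNA.

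Relative to all IDs, every member stood lower in the order of abundance on Avicel than on glucose. The median rank was 587.5 on Avicel and 238.5 on glucose, and the shift ran from 19 to 1658 places with a median of 309. It exceeded 500 places for 23 members and was at most 100 places for 5. Among the 100 most abundant IDs, 2 members were found on Avicel and 19 on glucose. The order within the members was largely kept between the carbon sources. Over the 96 members, mean levels on Avicel and on glucose had a Spearman correlation of 0.876 and a Pearson correlation of 0.904 on the log2 scale. The bounds on the ratio force part of that likeness, and the members share their libraries, so these values only describe them.

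The ratio of Avicel to glucose had a median of 0.511, with quartiles of 0.413 and 0.595. It was above 0.5 in 54 members, above 1/3 and at or below 0.5 in 35, and at or below 1/3 in 7. The 7 lowest were the members ranked 71, 81, 8, 39, 77, 18 and 80, with ratios of 0.251 to 0.330, and their ranks on glucose ran from 8 to 81. Rank 18 had 176 and 184 FPKM on Avicel, against 617 and 630.4 FPKM on glucose. Rank 39 had 109.6 and 103 FPKM on Avicel, against 395 and 413 FPKM on glucose. Over the 96 members the ratio was almost unrelated to the level on glucose (Spearman correlation -0.086), and weakly related to the level on Avicel (0.349). Both levels enter the ratio.

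The bounds of the rule cut through continuous distributions. Just above the lower bound of 0.25 lay c4179_g1 and the member ranked 81, with ratios of 0.251 and 0.259. Among IDs of at least 200 FPKM on glucose whose Avicel libraries lay below the glucose libraries, the nearest below that bound were at 0.245 and 0.243. The last of these had 3092 and 3433 FPKM on Avicel, against 12735 and 14098 FPKM on glucose, and it missed the members by a small margin although it is far more abundant than any of them. At the upper bound the members ranked 91 and 59 had a ratio of 0.665 each, and the nearest IDs outside that met the other conditions had 0.671 each. In all, 12 IDs of at least 200 FPKM on glucose had ratios above 0.67 and up to 0.7, all with both Avicel libraries below both glucose libraries. At the abundance minimum, the members ranked 96 and 95 had means of 109.0 and 124 FPKM on Avicel, against 202.5 and 203 FPKM on glucose, and the nearest IDs below it that met the other conditions had 112 and 128 FPKM on Avicel, against 199 and 198 FPKM on glucose.

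**Figure D2:**
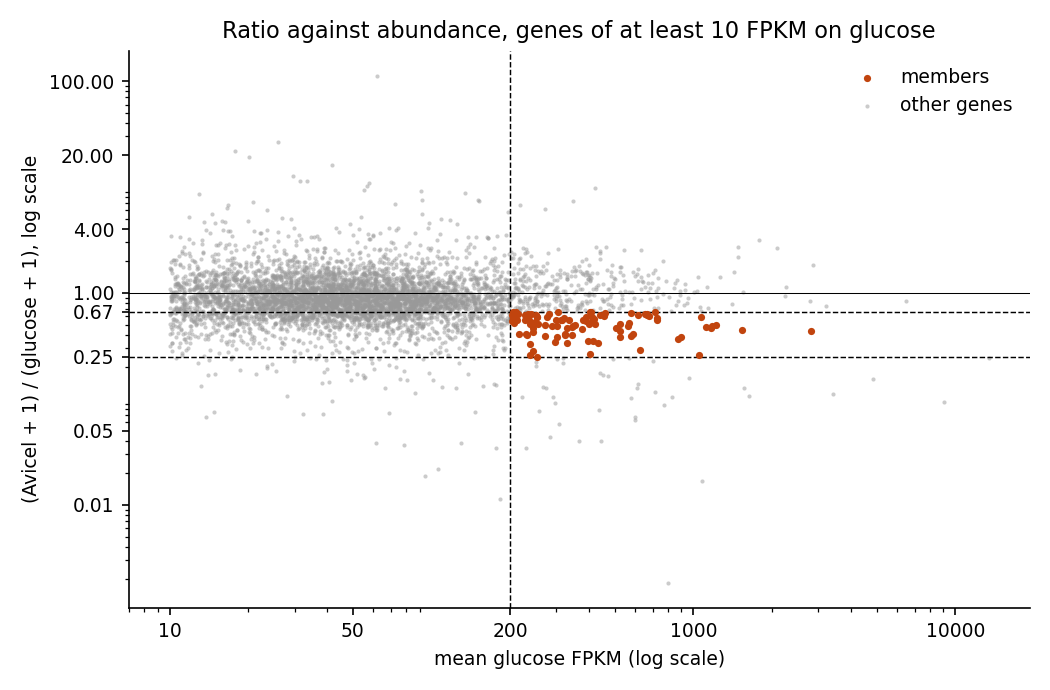
Ratio of mean Avicel FPKM plus 1 to mean glucose FPKM plus 1 against mean glucose FPKM, both on log scales, for IDs of at least 10 FPKM on glucose, with the 96 members in red, other genes in grey and dashed lines at 0.25, 0.67 and 200 FPKM. The members fill a rectangle of a continuous cloud, with 40 IDs of at least 200 FPKM below it.

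The differences between libraries of a carbon source were small beside those between carbon sources. The higher library of a pair exceeded the lower by a median factor of 1.02 on Avicel and 1.047 on glucose, over the 96 members. The Avicel libraries were within 5% of each other for 81 members and the glucose libraries for 52. The lowest glucose value exceeded the highest Avicel value by a median factor of 1.89, with a range of 1.37 to 3.89. In all 96 members this gap was wider than the factor between the libraries of either pair. No such count is given for other IDs, so it is not read as a trait of the members. The rule asks for a gap above 1 and does not set its width, although the bounds on the ratio largely do.

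The spread within pairs is not set by the rule in the same way, and its median was close to that of other abundant genes. For the 377 other IDs of at least 200 FPKM on glucose, the median factor within a pair was 1.02 on Avicel and 1.048 on glucose. The second glucose library was the higher in 57.3% of the members and in 61.5% of these other IDs. The second Avicel library was the higher in 52.1% of the members and in 43.2% of the other IDs. All genes share these libraries, and no test of these shares was made.

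The least even member was rank 62, with 154 and 181 FPKM on Avicel, against 259 and 339.6 FPKM on glucose. Its second library was the higher on both carbon sources, by a factor of 1.18 on Avicel and 1.31 on glucose. Rank 49 had 150.2 and 122 FPKM on Avicel, against 317 and 370.0 FPKM on glucose, and here the first library was the higher on Avicel and the second on glucose. Rank 61 had 132 and 160 FPKM on Avicel, against 303 and 299.8 FPKM on glucose, with a wide difference on Avicel and a narrow difference on glucose. The narrowest gap, a factor of 1.37, belonged to rank 13, with 486 and 457 FPKM on Avicel, against 668 and 754 FPKM on glucose.

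**Figure D3:**
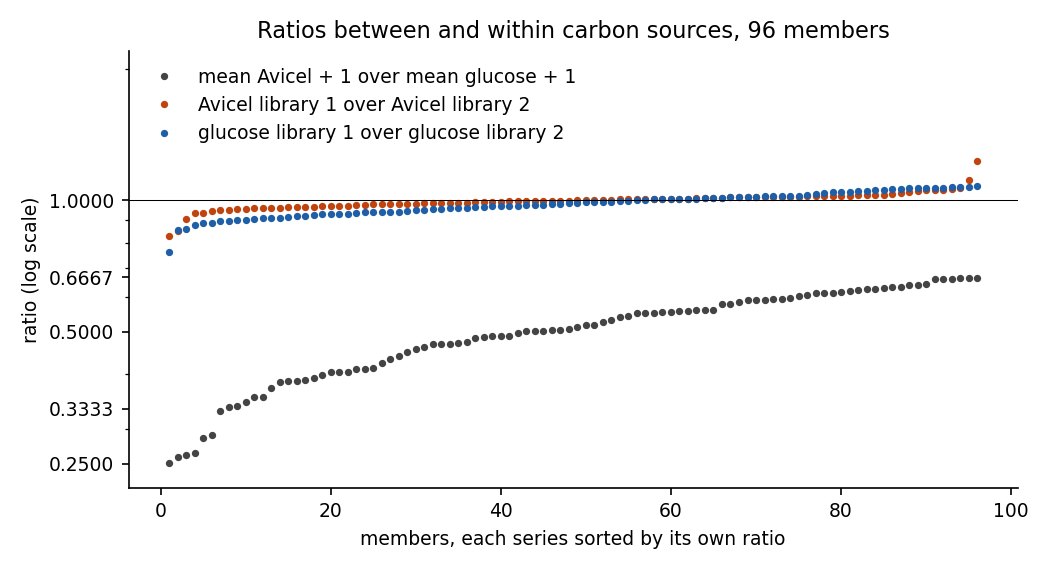
Ratios of the 96 members on a log scale, each series sorted on its own: mean Avicel over mean glucose with 1 added to each (dark grey), Avicel library 1 over 2 (red) and glucose library 1 over 2 (blue). The within-source ratios run from 0.828 to 1.23 on Avicel and from 0.762 to 1.08 on glucose, whereas the ratios between carbon sources run from 0.251 to 0.665.

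Taking each Avicel library with each glucose library separately gave nearly equal medians, although the members were chosen on the means of these same libraries. The median ratio over the members was between 0.513 and 0.517 in the 4 pairs of libraries. In 2 of them the upper bound was exceeded by 6 and 7 members, both with the first glucose library. With the second glucose library the numbers were 0 and 2. The lowest ratio was 0.253 for the first Avicel and first glucose library. In the other pairs it was 0.247, 0.241 and 0.247, below the lower bound.

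The members together made up 3.99% and 3.99% of the FPKM total in the Avicel libraries, against 8.18% and 8.08% in the glucose libraries. Mean shares were 3.99% ± 0.004 (SD, n = 2) on Avicel and 8.13% ± 0.07 (SD, n = 2) on glucose. Their summed level was 22048 ± 29.6 FPKM (SD, n = 2) on Avicel and 44630 ± 468 FPKM (SD, n = 2) on glucose, a ratio of 0.494. The 10 most abundant members held 1.04% ± 0.003 (SD, n = 2) of the FPKM total on Avicel and 2.35% ± 0.06 (SD, n = 2) on glucose. Shares from 2 libraries against 2 cannot pass 0.05 in an exact permutation test, and the direction was fixed by the choice of members.

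The loss was spread over many members. Summed over the members, the mean level was 22582 FPKM lower on Avicel than on glucose. The 10 most abundant members accounted for 31.7% of that difference and c395_g1 for 7.02%, and 24 members were needed to reach 50% of it. Over all 5844 IDs with a lower mean on Avicel the levels differed by 135434 FPKM in sum. The members were 1.64% of those IDs and carried 16.7% of that sum. The 40 IDs of at least 200 FPKM on glucose with a ratio at or below 0.25 carried 31.6% of it. The minimum on glucose and the bounds on the ratio give IDs in both groups large differences in FPKM. These shares of the sum are therefore largely set by the choice.

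Among the 473 IDs of at least 200 FPKM on glucose, the members were 20.3%. A further 54.3% had a ratio above 0.67 and below 1.5, 16.9% had a ratio of at least 1.5, and 8.46% one at or below 0.25. No ID of this abundance fell in the members' window of ratios with overlapping libraries.

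The share of IDs that met the conditions on ratio and overlap was similar in the 6 classes of abundance from 10 FPKM upward, whereas the share with a stronger decrease was not. Those conditions were met by 21.4% of 2702 IDs with 10 to 50 FPKM on glucose, 21.02% of 1484 IDs with 50 to 100 FPKM and 22.8% of 744 IDs with 100 to 200 FPKM. Above the minimum, the share was 19.8% of 283 IDs with 200 to 400 FPKM, 20.8% of 154 IDs with 400 to 1000 FPKM and 22.2% of 36 IDs of at least 1000 FPKM. A ratio at or below 0.25 was found in 1.18%, 1.55% and 2.02% of the 3 lower classes and in 5.30%, 11.7% and 19.4% of the 3 higher ones. IDs were put in these classes by their glucose level, which also enters the ratio, so the shares are descriptive.

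The 8261 IDs that reached 1 FPKM in 2 or more libraries were compared with limma, a linear model with a moderated test, on log2(FPKM + 1) values. All 96 members passed this filter, because each has at least 200 FPKM on glucose. Lower values on Avicel were called at a Benjamini-Hochberg adjusted p below 0.05 for 96 of the 96 members and for 39.5% of all tested genes. Non-overlapping libraries with Avicel lower were found for 51.3% of the tested IDs, and for every member by the rule. Because the rule used this contrast, the members' counts carry no evidence of their own. The background itself depends on the scale: 3259 genes were called lower and 1912 higher on the deposited values, 2357 lower and 2478 higher after median-of-ratios scaling, and 2531 lower and 2340 higher after quantile normalization.

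The median change of the members was -0.97 on the log2(FPKM + 1) scale, between -2.0 and -0.59, with standard errors of 0.03 to 0.16. Over all tested genes the median change was -0.16, and over those of at least 200 FPKM on glucose it was -0.15. When limma tested against a change of 1.5-fold, 72 of the 96 members were called lower, beside 9.85% of all tested genes. The choice shapes that count too, since a ratio at or below 0.67 puts every member at a decrease of 1.5-fold or more. The rule does not fix the exact number, which is read as a description only.

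FPKM is relative to the total of a library, and the size of the decrease depended on the scale. Median-of-ratios scaling sets the typical gene of each library equal, and it moved the median change of all tested genes to -0.01 and that of the members to -0.79. The median ratio of the members became 0.577, and the ratio of 28 members exceeded the upper bound. Quantile normalization, which gives all libraries 1 common distribution, gave a median ratio of 0.493. Rescaling to equal totals gave 0.508. On each of these 3 scales both Avicel libraries lay below both glucose libraries for all 96 members, and limma called all 96 lower. Of all tested genes, limma called 28.6% lower after median-of-ratios scaling, 30.7% after quantile normalization and 39.96% after rescaling to equal totals. The share of tested genes with non-overlapping libraries is given for the deposited scale only. Because the members were chosen by this same contrast, their counts on these scales carry no evidence of their own. For c395_g1 the change was -1.03 after median-of-ratios scaling and -1.48 after quantile normalization.

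**Figure D4:**
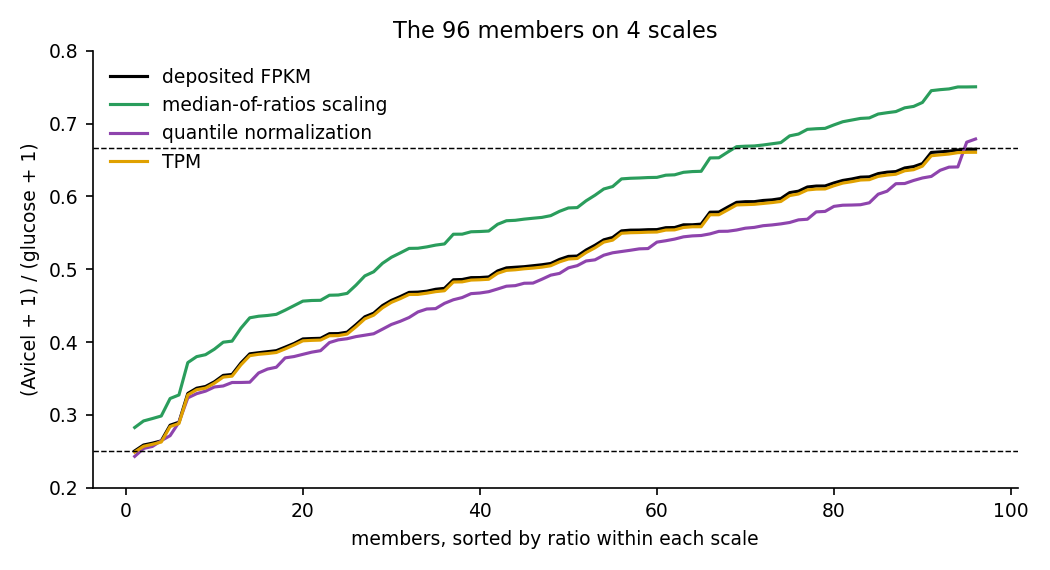
Ratios of the 96 members on the deposited FPKM scale and after median-of-ratios scaling, quantile normalization and rescaling to equal totals, sorted within each scale. The curve marked TPM has each library rescaled to the mean FPKM total, and dashed lines lie at 0.25 and 0.67. Median-of-ratios scaling lifts the curve to a median of 0.577 and a maximum of 0.751, and every ratio on every scale is below 1.

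Each ID joins the number of a component to that of a gene. Assemblies built from RNA reads alone use this form, but the labels mention no assembly. There, a component groups sequences that share stretches, so that reads could be divided among its IDs. Of the 96 members, 86 were the sole ID of their component and 10 shared it with others (10.4%, beside 6.37% of the 377 other IDs of at least 200 FPKM on glucose and 6.0% of all IDs). The members ranked 2 and 6 belong to 1 component and are its only IDs. Both were lower on Avicel by similar ratios, 0.450 and 0.474, and in sum they had 1229 and 1214 FPKM on Avicel, against 2742 and 2571 FPKM on glucose.

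The other 8 members with shared components had 12 partner IDs that are not members. Each of the 12 had a ratio above that of its member, with a median of 0.832 and a range of 0.610 to 1.28. Partners that met the conditions on ratio and overlap below 200 FPKM numbered 3. At least 200 FPKM on glucose was reached by 3 of the 12 partners. Any of these that met the conditions on ratio and overlap would itself be a member. The other partners lay below that minimum, so the rule kept them out at any ratio.

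In 4 of these components a partner had a ratio above 1. These partners were singled out after their values were seen. limma called 3 of them higher on Avicel, those of ranks 13, 46 and 80 (adjusted p = 0.0187, 0.0035 and 0.00643), and not that of rank 82 (adjusted p = 0.330). In the same fit 1912 of the 8261 tested genes were called higher. Of the 12 partners, 8 had a ratio below 1, so the 3 calls are not read as a trait of these components. The partner of rank 13 had 806 and 829 FPKM on Avicel, against 589 and 686 FPKM on glucose, a change of 0.36 ± 0.08 on the log2(FPKM + 1) scale (SE from limma). Summed with rank 13 itself, that component had 1293 and 1287 FPKM on Avicel, against 1257 and 1440.4 FPKM on glucose. The summed libraries of the carbon sources overlap, although the member alone was lower on Avicel. For rank 46, with a ratio of 0.457, the partner had 50.5 and 52.5 FPKM on Avicel, against 40.6 and 42.2 FPKM on glucose.

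Rank 80 had 75.04 and 80.2 FPKM on Avicel, against 228 and 247 FPKM on glucose. Its 2 partners had ratios of 0.950 and 1.201, the more abundant with 274 and 282 FPKM on Avicel, against 289 and 296 FPKM on glucose. The whole component had a ratio of 0.739, whereas the member's own was 0.330. In the component of rank 82, with a ratio of 0.561, partners had ratios of 0.636 and 1.04. Of the 9 components with a member and at least 1 other ID, 5 had a summed level inside the members' window of ratios and 4 had a ratio above it. The 4 above it were the components of the members ranked 13, 40, 80 and 82. In each of the 8 components with partners that are not members, the decrease of the member was larger than that of its component. This follows from the ratios of the partners, each of which lay above that of its member. Whether reads were divided among these IDs was not tested.

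**Figure D5:**
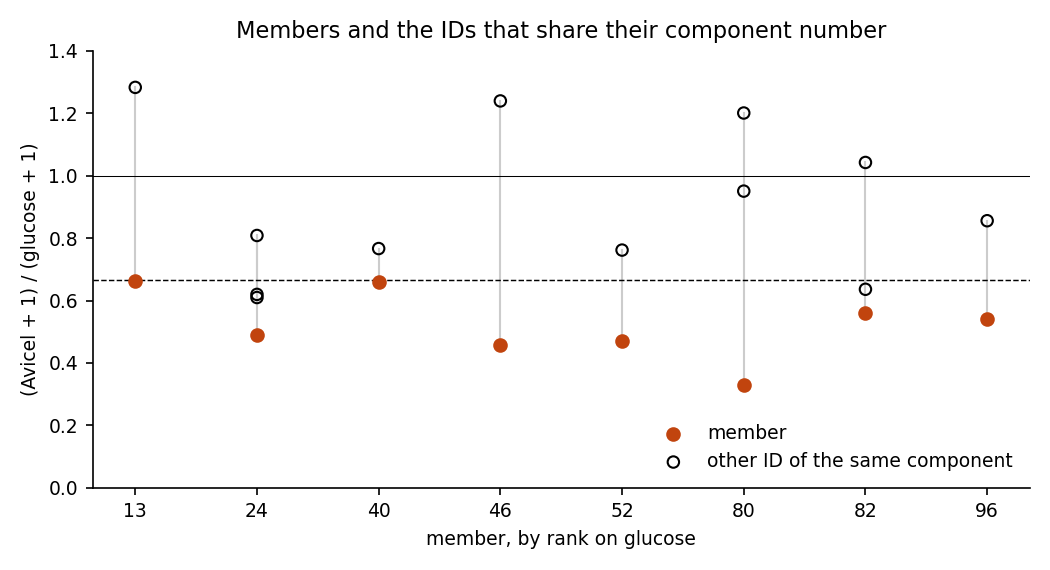
Ratio of mean Avicel FPKM plus 1 to mean glucose FPKM plus 1 for 8 members (filled) and the 12 other IDs of the same component (open), by the member's rank on glucose, with a dashed line at 0.67. All open circles lie above their member, and 4 lie above 1.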

How the data were processed

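Per the file headers, each deposited table holds the FPKM of 1 library by gene ID, with values to 2 decimals. The submitters' processing notes name RSEM 1.2.15, which estimates transcript abundance, and Bowtie2, an aligner. Reference, annotation and read filters: not given in the sources used here. Libraries were grouped by the labelled carbon source. FPKM carries no counts, so precision rests on the spread between 2 libraries per carbon source. The SEs and p-values from limma combine that spread with a trend over all tested genes (residual degrees of freedom 2, prior 2.34).

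Values were analysed as deposited, with Python 3.11.15 and limma 3.58.1 in R 4.3.3. limma was fitted to log2(FPKM + 1) over all 8261 IDs that reached 1 FPKM in 2 or more libraries, with carbon source as the term, a variance trend on abundance and Benjamini-Hochberg adjustment. The fit was tested on simulated data. Fold changes on this scale understate those of low genes.

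The members, lists and rules were chosen with earlier results of these data known. The naming rule gives IDs to the member highest on glucose and to that with the lowest ratio. Other members are named by rank: 2 to 10, those at a bound, the least even pairs, and those with shared components. The 7 members with the lowest ratios were singled out after their values were seen. Alternatives were other pseudocounts, filters, scalings and bounds, a replicate block, and each library left out.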

Additional observations from a re-analysis of the deposited data

How the results depend on the processing

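The number of members followed the bounds most: 266 IDs met the rule with a minimum of 100 FPKM on glucose, 40 with 400 FPKM and 42 with an upper bound of 0.5. It was 71 after median-of-ratios scaling (64 of them members), 115 after quantile normalization (93 members) and 97 after rescaling to equal totals. The number was 95 and 94 with pseudocounts of 0.1 and 10, and 92 to 103 with 1 library left out. In all 4 of those last settings 85 members were kept. With the members held fixed, their median log2 change, -0.97, was -0.79 after median-of-ratios scaling and -1.02 after quantile normalization. It was -0.98 after rescaling to equal totals, -0.93 with a pseudocount of 10, and -0.96 to -0.95 with 1 library left out. With 1 library left out, a gene's own spread comes from the remaining pair alone and is taken to hold for the single library too. Without c395_g1 the members held 3.77% of the FPKM total on Avicel and 7.62% on glucose. Leaving out 1 library gave 3.99% on Avicel and 8.08% to 8.18% on glucose. The test against 1.5-fold left 814 genes called lower of 3259, since it asks for a larger change. After median-of-ratios scaling 48.7% of all calls were lower, against 63.0% on the deposited scale. The other alternatives that kept every library gave 2357 to 3296 lower calls, or 28.6% to 50.5% of the 5584 to 9704 genes tested. All 96 members were called lower in each, which follows from the choice of members. No label ties libraries that carry the same replicate number, and their deviations from the group means correlated at -0.001 across the genes tested and at 0.162 across the 96 members. With the replicate as a block 3187 genes (38.6% of those tested) and 96 members were called lower. Over the 13 alternatives the log2 change was -1.48 to -1.03 for c395_g1 and -2.03 to -1.82 for c4179_g1. Both were drawn from members kept by this same contrast, so their direction was fixed by the choice. Without counts, what depth limits is unknown.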
